A study of Mus musculus with 88 samples.

Results

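Ddx60, the cytoplasmic RNA sensors and the Oas1 genes of the oocyte were followed in single germinal vesicle (GV) oocytes of young and aged mice. The group held 10 genes, namely Ddx60, the RIG-I-like receptors Ddx58, Ifih1 and Dhx58, their adaptor Mavs, the oligoadenylate synthetase genes Oas1c, Oas1d, Oas1e and Oas1h, and the RNA editing enzyme Adar. A gene was matched to a feature of the deposited count table by the feature's published name. Where a feature had no such name, the match was by span with a same-strand gene of GENCODE M21, at a Jaccard index of at least 0.3. By this rule 8 of the 10 genes had a feature among 38540, and the levels of Ifih1 (chr2:62595798-62646255) and Dhx58 (chr11:100694884-100704271) were not analysed here. The group was chosen by the level of Ddx60, which was lower in the aged oocytes of these same data, and by the high level of the Oas1 genes in them, so these values are given as a description.

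GV oocytes are fully grown oocytes arrested before the first meiotic division. All oocytes came from C57BL/6Babr females with no treatment named, 42 from young mice of 12 weeks and 46 from aged mice of 44 to 54 weeks. The study placed 87 of the 88 oocytes into one of 2 chromatin configurations, predicted from their transcripts. In the non-surrounded nucleolus (NSN) configuration the chromatin is dispersed and transcription goes on, whereas in the surrounded nucleolus (SN) configuration a ring of chromatin encloses the nucleolus and transcription has largely ceased. Values were compared over 30 young NSN, 12 young SN, 37 aged NSN and 8 aged SN oocytes. The aged oocyte named 48A, which had no configuration and was left out by the study as an outlier, was kept apart. No label ties an oocyte to a mouse, so each age was treated as 1 sample, oocytes were not counted as replicates, and no p-value was computed. Counts per oocyte ranged from 976456 to 8231046, with a median of 3002989 for the young and 2379884 for the aged oocytes. Levels are given as counts scaled to an oocyte's own total (CPM), a share that does not show how much RNA an oocyte held. All 8 oocyte markers with a feature, such as Zp3 and Gdf9, had counts in every oocyte, and their summed level had a median of 18156 CPM for the young and 17819 CPM for the aged oocytes.

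Cells recognise foreign or misplaced double-stranded RNA in the cytoplasm with a few helicases and enzymes. Ddx58 encodes RIG-I, Ifih1 encodes MDA5 and Dhx58 encodes LGP2, and RIG-I and MDA5 signal through Mavs on mitochondria to switch on interferon genes. Ddx60 encodes an interferon-inducible helicase related to the RNA-unwinding subunit of the Ski complex, and it has been described as an aid to RIG-I. Oligoadenylate synthetases bind double-stranded RNA and make a short messenger that sets off the breakdown of RNA, while Adar edits adenosines in double-stranded RNA and so hides the cell's own RNA from the sensors. Rodents carry an expanded Oas1 cluster, and several of its copies are expressed in the ovary, including Oas1d, whose product lacks synthetase activity and whose loss lowers female fertility.

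The windows before the start sites are shown because interferon acts on its target genes through a short element there, the interferon-stimulated response element (ISRE). Its core was searched as GAAA, any 2 bases and GAAA again, on both strands in the 250 bases before each RefSeq start (GRCm38.p6), overlapping matches counted separately. Capitals mark the matches in the last 120 bases before the start of Ddx60 (chr8:61927967-61928086, plus strand), Oas1c (chr5:120812515-120812634, minus strand), Oas1h (chr5:120861302-120861421, plus strand) and Ddx58 (chr4:40239826-40239945, minus strand), each written on the strand of its gene.
Ddx60: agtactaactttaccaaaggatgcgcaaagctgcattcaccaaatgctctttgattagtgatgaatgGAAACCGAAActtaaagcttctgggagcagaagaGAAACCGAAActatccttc
Oas1c: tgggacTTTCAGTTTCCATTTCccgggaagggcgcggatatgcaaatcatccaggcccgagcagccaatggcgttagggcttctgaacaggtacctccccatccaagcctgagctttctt
Oas1h: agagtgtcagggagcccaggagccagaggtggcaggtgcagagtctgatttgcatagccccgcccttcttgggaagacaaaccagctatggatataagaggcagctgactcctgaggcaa
Ddx58: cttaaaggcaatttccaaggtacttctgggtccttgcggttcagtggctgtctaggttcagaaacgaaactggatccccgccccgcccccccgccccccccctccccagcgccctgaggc

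Ddx60 held 2 separate copies of the core with the same 10 letters, GAAACCGAAA, at positions -53 to -44 and -19 to -10, where -1 is the base just before the start. Oas1c held 2 matches on the other strand that overlapped each other, at -114 to -105 and -108 to -99. No match lay in the windows of Ddx58, Ifih1, Mavs, Oas1h or any of the 3 starts of Adar. Among all 32851 windows of this length, 2.98% held at least 1 match and 0.18% held 2 or more, and by gene 3.46% of 27025 genes had a match. In the pathway lists described further on, the core was found for 7 of 18 interferon-stimulated genes with a window and for 3 of 8 other OAS pathway genes (Oas1a, Oas1g and Oas3). It was found for 3 of 9 interferon receptor signalling genes (Stat2, Irf2 and Socs1), and for 0 of 14 RIG-I-like receptor partners, 0 of 15 other double-stranded RNA binding and sensing genes and 0 of 2 genes of the Ski complex list. A match is only a run of letters, and no factor was measured at these sites. The measured features did not all begin at the RefSeq starts. That of Ddx58 began at chr4:40220600, inside the gene, whereas its RefSeq start lies at chr4:40239825. Those of Oas1h (chr5:120860852) and Adar (chr3:89711352) began before their first RefSeq starts at chr5:120861422 and chr3:89715022. Which start the oocytes use was not tested.

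The start of the coding sequence is shown for 3 of the Oas1 genes because reads of such similar genes can be hard to assign. Capitals mark the 23 of 90 positions at which Oas1c (chr5:120808674-120808763, minus strand), Oas1d (chr5:120914884-120914973, plus strand) and Oas1e (chr5:120795409-120795498, minus strand) were not all alike in the GENCODE M21 transcripts (GRCm38).
Oas1c: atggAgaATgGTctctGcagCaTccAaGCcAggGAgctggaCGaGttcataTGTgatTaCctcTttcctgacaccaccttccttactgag
Oas1d: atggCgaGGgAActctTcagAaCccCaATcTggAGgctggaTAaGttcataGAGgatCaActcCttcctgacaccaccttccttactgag
Oas1e: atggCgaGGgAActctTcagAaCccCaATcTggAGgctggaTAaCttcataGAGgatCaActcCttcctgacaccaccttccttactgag

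Oas1d and Oas1e differed at 1 of these 90 bases and Oas1c and Oas1d at 22. Over the whole coding sequence Oas1d and Oas1e were the most alike of the 6 pairs among Oas1c, Oas1d, Oas1e and Oas1h, with 89.8% identical bases, and Oas1e and Oas1h the least alike with 77.1%. No 100-base window of the Oas1d, Oas1e or Oas1h transcript occurred in a transcript of another gene, and 4.47% of those of Oas1c did, all in the overlapping annotation Gm43069. With 50-base windows the shared part rose to 16.3% for Oas1c, 11.5% for Oas1e, 6.24% for Oas1d and 0.484% for Oas1h. Reads that were cut short by trimming could therefore have been split between these genes, and their levels are uncertain to that extent. For Adar 16.98% of the 100-base windows were shared with the neighbouring gene Chrnb2, and for Ddx60, Ddx58 and Mavs none were shared at either length.

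Levels differed between the genes by orders of magnitude. Per kilobase of annotated exon within the feature, the mean over the 87 oocytes was 1186 CPM ± 154 (SD) for Oas1e, 948 ± 97.8 for Oas1d, 498 ± 54.0 for Oas1c and 447 ± 54.5 for Oas1h. Adar followed at 11.0 ± 1.41 CPM per kilobase, Mavs at 8.79 ± 2.18, Ddx58 at 6.83 ± 2.17 and Ddx60 at 1.13 ± 1.01. Within single oocytes and per kilobase, Oas1e was above Oas1d in 86 of 87, Oas1d above Oas1c in 87 of 87 and Oas1h above Adar in 87 of 87. The order was less even for neighbours with similar levels, with Oas1c above Oas1h in 76, Adar above Mavs in 71 and Mavs above Ddx58 in 69 of 87 oocytes. Ddx58 was measured on a feature over part of the gene only (chr4:40203777-40220600, minus strand, Jaccard index 0.467). The feature of Oas1e ran past its gene (Jaccard index 0.587), so its length and its place above Oas1d are less certain. By CPM without length Oas1e was higher in most oocytes but not in all. In aged oocyte 9, for example, Oas1d had 1534 CPM and Oas1e 1378 CPM. By CPM over all oocytes Oas1e ranked as feature 19 of 38540, Oas1d 29, Oas1c 68, Oas1h 137 and Adar 2659, whereas Ddx60 ranked 9272.

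Ddx60 (chr8:61928087-62037701, plus strand) was high in most young and low in most aged oocytes. In young oocytes it ranged from 0.488 CPM in oocyte 35A to 36.3 CPM in oocyte 1 with a median of 12.9 CPM, and in aged oocytes from 0 to 22.7 CPM in oocyte 41 with a median of 2.61 CPM. The ranges overlapped, but 40 of 45 aged oocytes lay below the young median and 9 lay below the lowest young oocyte. From summed counts the level was 14.2 CPM in the young (1892 counts, exact Poisson 95% interval 13.6 to 14.9) and 5.00 CPM in the aged oocytes (566 counts, 4.60 to 5.43). The log2 ratio of aged over young was -1.51 (exact 95% interval -1.64 to -1.37, counting error only). A feature was called when its summed level was past 1.5-fold with at least 1 CPM in a group and 3 counts in both. Ddx60 was the only one of the 8 genes called lower with age and none was called higher, against 2.4% of 16711 features lower and 0.497% higher. Since Ddx60 was chosen for this contrast, its call carries no weight of its own. The same holds for its rank, with 26 features, 0.156% of those compared, at a more negative ratio.

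The detection of Ddx60 differed in the same direction. All 42 young oocytes held at least 1 count and 39 of 45 aged oocytes did, which is 86.7% (exact binomial 95% interval 73.2 to 94.9). This interval takes the oocytes as independent draws, although their mice are not known, so it cannot decide on a difference between the ages. After each oocyte was thinned to 900000 counts the numbers were 42 of 42 and 37 of 45. The 6 aged oocytes without a count were 9, 9A, 28, 30A, 46 and 47A. At the upper end 25 of 42 young and 8 of 45 aged oocytes reached 10 CPM, and 12 aged oocytes against 1 young oocyte stayed under 1 CPM. Across oocytes of an age the level did not follow depth, with Spearman's rho to the total count of 0.13 in 42 young and 0.01 in 45 aged oocytes.

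**Figure D1:**
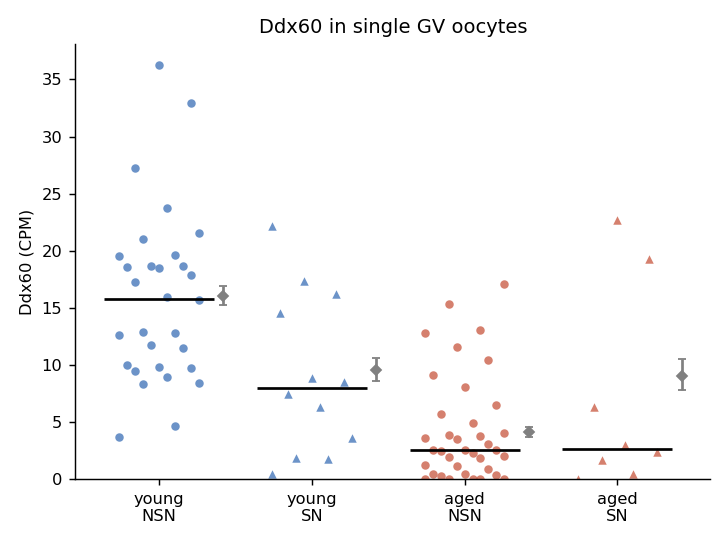
Ddx60 in CPM (vertical axis, linear) in each of 87 oocytes, with circles for NSN, triangles for SN, blue for young and red for aged, black lines at the medians, and grey diamonds with bars for the level from summed counts and its exact Poisson 95% interval. Young NSN oocytes had a median of 15.8 CPM and aged NSN oocytes 2.61 CPM, and in aged SN oocytes the summed level of 9.09 CPM stands above the median of 2.68 CPM, with the highest values at 19.3 and 22.7 CPM.

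In NSN oocytes the difference was larger. Young NSN oocytes ranged from 3.67 to 36.3 CPM with a median of 15.8 CPM, and aged NSN oocytes from 0 to 17.1 CPM with a median of 2.61 CPM. Of the 37 aged NSN oocytes 36 were below the young NSN median and 23 were below the lowest young NSN oocyte. The summed level was 16.1 against 4.13 CPM, a log2 ratio of -1.96 (-2.13 to -1.80), and Ddx60 was again the only 1 of the 8 genes called, against 3.02% of 16616 features lower and 0.764% higher.

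In SN oocytes the summed levels were nearly equal, but they rested on single oocytes. Young SN oocytes ranged from 0.488 to 22.1 CPM with a median of 8.03 CPM (n = 12), and the 8 aged SN oocytes from 0 to 22.7 CPM with a median of 2.68 CPM. The summed levels were 9.58 and 9.09 CPM, a log2 ratio of -0.08 (-0.34 to 0.19), and 0 of the 8 genes were called, against 5.52% of 17428 features lower and 6.56% higher. Aged oocyte 41 alone gave 60.2% of the counts in aged SN oocytes. Without it the aged SN level was 4.76 CPM and the log2 ratio -1.01. The ratio of medians was -1.58 on the log2 scale, and 6 of 8 aged SN oocytes lay below the young SN median.

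Within young oocytes Ddx60 was lower in SN than in NSN, with a log2 ratio of -0.75 (-0.91 to -0.58), and 9 of 12 SN oocytes lay below the NSN median. In aged oocytes the summed level was higher in SN, with a log2 ratio of 1.14 (0.88 to 1.40), but the ratio fell to 0.21 without oocyte 41 and the medians were 2.68 and 2.61 CPM. Ddx60 was the only 1 of the 8 genes called in either contrast. In young oocytes 2.0% of 17142 features were called lower in SN and 8.16% higher, and in aged oocytes 5.5% of 17247 lower and 16.5% higher. The configuration was predicted from the transcripts of the same oocytes, so these 2 ratios are not independent of it.

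By their names the oocytes formed 6 runs of numbers, 3 per age, and what a run stands for is not given. Ddx60 was 15.6, 13.5 and 13.5 CPM in the young runs 1 to 7, 17 to 24 and 33 to 39. It was 5.17, 4.12 and 5.55 CPM in the aged runs 9 to 16, 25 to 31 and 41 to 48. The lowest young run thus lay above the highest aged run. Each run held oocytes of a single age, so no comparison of the ages within a run was possible. In NSN oocytes alone the young runs lay between 15.2 and 17.2 CPM and the aged runs between 3.62 and 4.70 CPM.

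Ddx60 was also among the most uneven features. Its coefficient of variation beyond counting noise was 54.9% in young and 113% in aged oocytes, above 97.4% and 98.7% of features with a mean count within 2-fold of its own, whose medians were 23.1% and 37.4%. In aged oocytes the 3 highest oocytes held 33.6% of all Ddx60 counts, and in young oocytes 17.2%.

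The sensor Ddx58 and the adaptor Mavs differed little with age. Ddx58 ranged from 9.604 to 43.9 CPM with a median of 26.8 CPM in young, and from 10.8 to 55.6 CPM with a median of 28.2 CPM in aged oocytes. Its summed level was 27.2 and 26.2 CPM, and the log2 ratio of -0.05 (-0.12 to 0.02) was small beside the SDs of 8.16 and 9.17 CPM over oocytes. Mavs (chr2:131233992-131248025, plus strand) ranged from 19.6 to 49.2 CPM with a median of 29.4 CPM in young, and from 17.2 to 54.5 CPM with a median of 27.1 CPM in aged oocytes. The log2 ratio of its summed levels was -0.18 (-0.25 to -0.12), and the means differed by 0.50 of the larger SD. The 3 young runs had 30.3 to 32.3 CPM of Mavs and the 3 aged runs 27.1 to 28.5 CPM, so these did not overlap, although the oocytes did. Mavs was higher in SN than in NSN at both ages, with log2 ratios of 0.20 in young and 0.20 in aged oocytes. After thinning to 900000 counts these ratios were 0.08 in young and 0.27 in aged oocytes.

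Adar (chr3:89711352-89753446, plus strand) was present at an even level in young oocytes. It ranged from 70.2 to 110 CPM with a median of 89.9 CPM in young, and from 66.4 to 118 CPM with a median of 87.3 CPM in aged oocytes. The log2 ratio was -0.01 (-0.05 to 0.03). Its coefficient of variation beyond counting noise was 7.57% in young oocytes, lower than in all but 0.575% of features of like count, and 13.5% in aged oocytes, where 16.9% of such features were lower. Counting noise included, its coefficient of variation in young oocytes was 9.77%, close to the 9.39% of Oas1c and the 9.63% of Oas1d. A feature on the other strand lay within its span and held 4.93% as many counts. The library protocol does not mark strand, so reads of the pair cannot be told apart, and the same holds for Oas1e and Oas1h, whose other-strand features held 0.193% and 0.303% as many counts.

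The 4 Oas1 genes of the group lie within 1 cluster on chromosome 5 and were abundant in every oocyte. Oas1e (chr5:120780343-120796191, minus strand) ranged from 1661 to 2799 CPM with a median of 2202 CPM in young, and from 1378 to 2740 CPM with a median of 2163 CPM in aged oocytes. Oas1d (chr5:120914402-120921652, plus strand) had medians of 1899 CPM in the young and 1920.1 CPM in the aged oocytes, within 1542 to 2334 CPM and 1534 to 2297 CPM. Oas1c (chr5:120800194-120812568, minus strand) had medians of 1178 and 1224 CPM, within 945 to 1411 CPM in young and 875 to 1506 CPM in aged oocytes. For Oas1h (chr5:120860852-120873512, plus strand) the medians were 757 and 781 CPM, within 578 to 905 CPM and 497 to 979.7 CPM. For each of the 4 genes the ranges of the ages overlapped, with 5 aged oocytes below every young oocyte for Oas1e, 2 for Oas1c, 2 for Oas1h and 1 for Oas1d.

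The log2 ratios of aged over young were 0.04 for Oas1c, 0.02 for Oas1d, -0.07 for Oas1e and -0.01 for Oas1h. With 85485 to 291387 counts per gene and age the counting intervals were narrow, for example -0.07 to -0.06 for Oas1e, but the differences of the means were at most 0.32 of the larger SD over oocytes. Together the 4 genes took a median of 0.597% of an oocyte's counts in the young and 0.610% in aged oocytes. In SN oocytes the log2 ratios of aged over young lay between -0.04 and 0.11. On the log2 scale Oas1e was higher in SN than in NSN oocytes by 0.15 in young and 0.18 in aged. Oas1h was higher by 0.06 and 0.21 and Oas1c by 0.03 and 0.07, whereas Oas1d had log2 ratios of -0.01 and -0.09. The single oocyte 24A held 25.5% of the Oas1e counts of young SN oocytes, and the medians of Oas1e were 2193 CPM in SN and 2207 CPM in NSN.

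**Figure D2:**
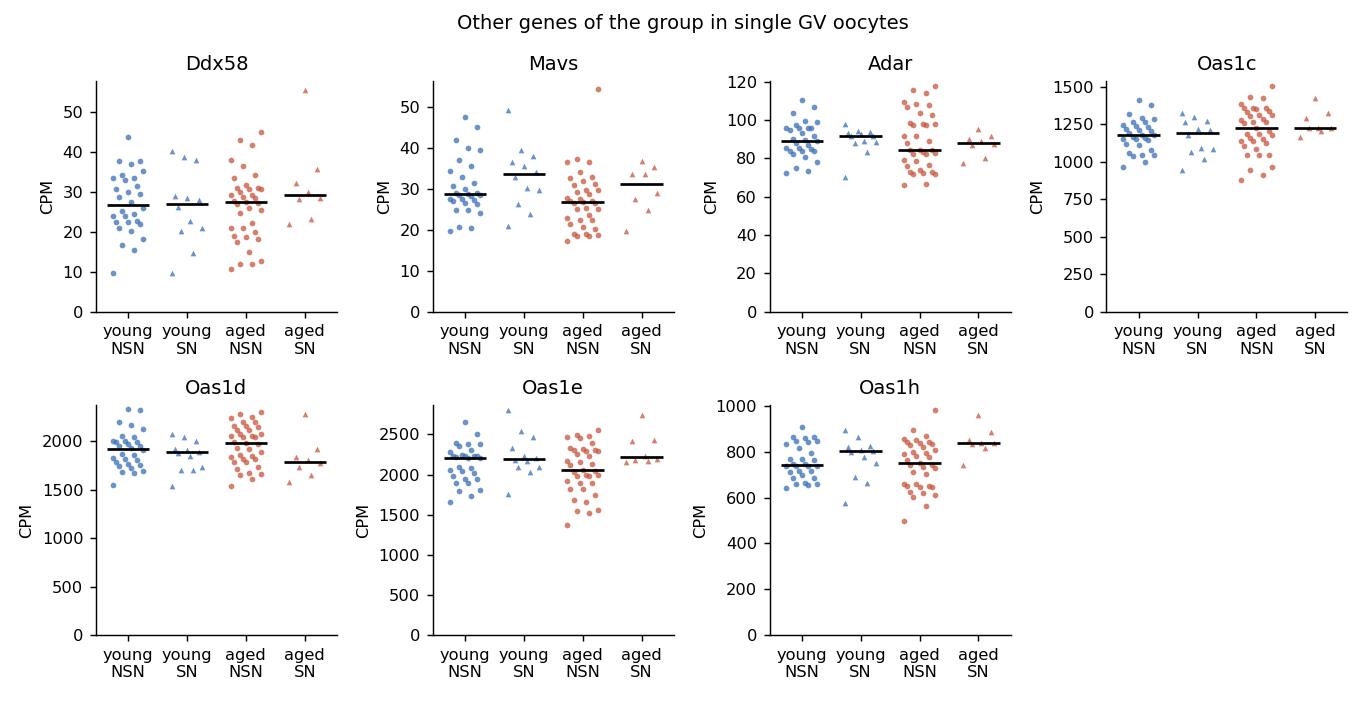
CPM (vertical axes, linear, from 0) of 7 further genes in each of 87 oocytes by age and configuration, with circles for NSN, triangles for SN, blue for young, red for aged and black lines at the medians. For each gene the young and aged values overlap, as for Oas1d with medians of 1899 and 1920.1 CPM.

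Over all oocytes the coefficient of variation beyond counting noise was larger in aged than in young oocytes for all 8 genes. For the 4 Oas1 genes it ran from 9.23% to 11.3% in young and from 10.8% to 14.4% in aged oocytes. In SN oocytes alone it was larger in aged oocytes only for Ddx60 (74.2% young, 125% aged) and Oas1d (8.39% and 11.6%). It was smaller in aged SN oocytes for the others, for example Ddx58 (34.1% and 30.5%) and Oas1e (11.9% and 8.63%). Over all oocytes features of like count were also more uneven in the aged. Their median rose from 13.4% to 17.2% in the count class of Oas1e and from 14.9% to 18.0% in that of Adar. Aged oocytes had the lower median total. After thinning to 900000 counts the squared coefficient of variation beyond counting noise was slightly smaller in aged oocytes for Ddx58 (0.102 young, 0.096 aged). For the other genes of the group it stayed larger in aged oocytes, as for Mavs (0.023 and 0.042) and Oas1c (0.0089 and 0.0131). The part of depth in the spread of features of like count was not tested.

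**Figure D3:**
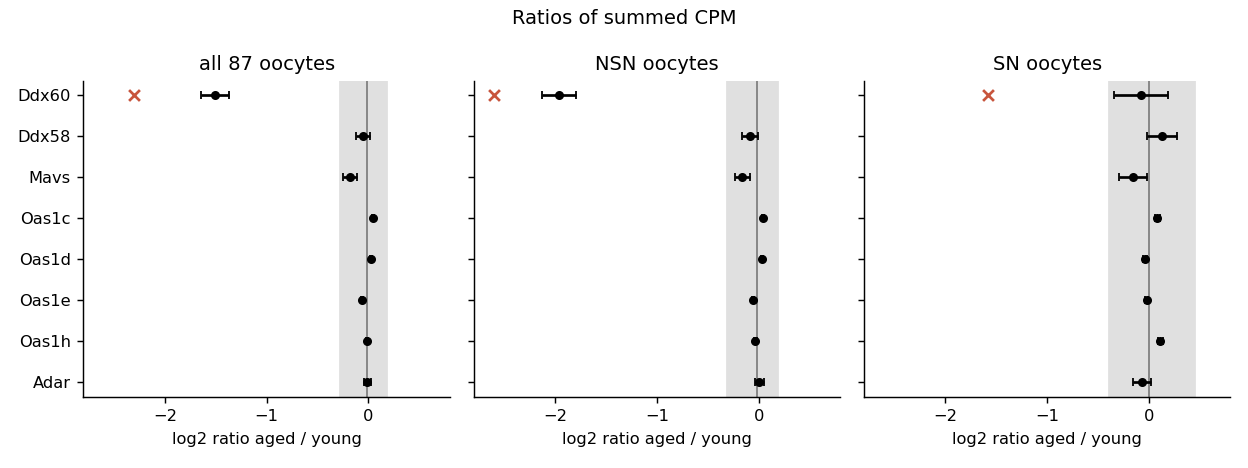
Log2 ratio of aged over young from summed CPM (horizontal axes) for 8 genes over all, NSN and SN oocytes, with black points and bars for the ratio and its exact 95% interval, a red cross for the ratio of medians of Ddx60, a grey line at the median of all features and grey bands over the middle 80% of them. Ddx60 stood at -1.51 and -1.96 in the first and the second panel, and at -0.08 by summed counts but -1.58 by medians in SN oocytes.

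The Oas1 genes rose and fell together from oocyte to oocyte. Over 87 oocytes Spearman's rho among their 6 pairs lay between 0.53 and 0.77, within young oocytes between 0.28 and 0.70 and within aged oocytes between 0.50 and 0.84. The highest value over all oocytes was that of Oas1e and Oas1h (0.77, Pearson's r 0.74), which are the least similar pair in sequence. This pair was also the highest within aged oocytes (0.84). Within young oocytes Oas1c and Oas1e were higher, with 0.70 against 0.66 for Oas1e and Oas1h. These points share their library and the total they are divided by. For Ddx60 and the other 7 genes rho lay between -0.18 and 0.29 over all oocytes. It lay between -0.45 (Oas1e) and 0.02 in young oocytes and between -0.12 and 0.30 (Mavs) in aged oocytes.

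**Figure D4:**
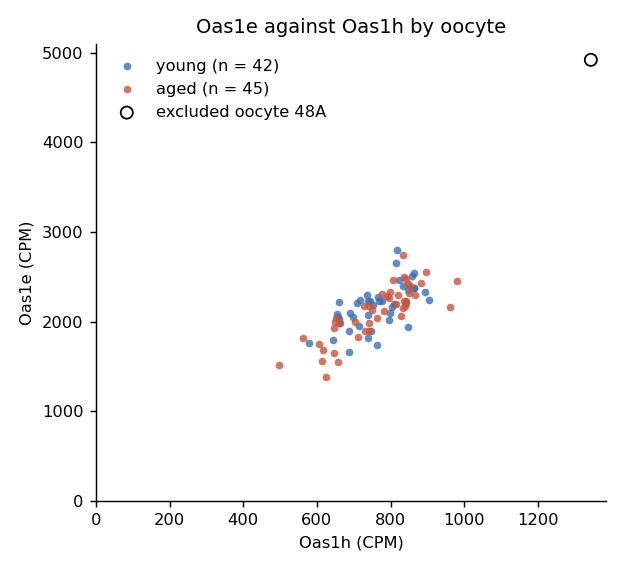
Oas1e (vertical axis) against Oas1h (horizontal axis), both in CPM, in 42 young (blue) and 45 aged (red) oocytes, with the excluded aged oocyte 48A as an open circle. The 87 oocytes lie along 1 line with Spearman's rho of 0.77, and oocyte 48A lies far above them at 4922 CPM of Oas1e and 1344 CPM of Oas1h.

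The features most like Ddx60 across the 87 oocytes were sought among 11360 with at least 5 CPM. They were Prl8a2 (Spearman's rho 0.61, Pearson's r of log2(CPM + 1) 0.59), Gm30564 (0.58 and 0.59), a feature on chromosome 11 without a name by the rule (0.55 and 0.57), Cttnbp2 (0.55 and 0.51) and Dsg1a (0.53 and 0.52). Prl8a2 is a member of the prolactin family. The likeness was taken over both ages with a gene known to be lower in aged oocytes, so a lower level of these features in aged oocytes is not a separate result. Their log2 ratios ran from -0.53 for Dsg1a to -2.30 for Prl8a2, and Prl8a2, Cttnbp2 and Dsg1a were above 5 CPM in young oocytes but not in aged ones. Within young oocytes rho was 0.44 for Prl8a2, which ranked 53 among the features, 0.42 for Gm30564 (rank 69), 0.28 for the chromosome 11 feature (680), 0.26 for Cttnbp2 (868) and 0.24 for Dsg1a (1122). Within aged oocytes it was 0.31 for Prl8a2 (rank 233), 0.46 for Gm30564 (23), 0.19 for the chromosome 11 feature (1169), 0.24 for Cttnbp2 (717) and 0.47 for Dsg1a (18). For 95% of all features rho over 87 oocytes was below 0.23.

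Over all oocytes pathway genes around the group were called with age about as rarely as features in general. Of 84 genes in 6 lists 64 had a feature and 53 had enough counts to be compared, and 1 was called lower and 0 higher, against 2.4% and 0.497% of all 16711 features. Their median log2 ratio was -0.00 against -0.01 for all features. The gene called was Eif2ak2, the double-stranded RNA-activated kinase PKR, at 1.19 CPM in the young and 0.76 CPM in the aged oocytes, a log2 ratio of -0.64 (-1.04 to -0.25). In NSN oocytes the ratio of Eif2ak2 was -1.05 (-1.53 to -0.58) and in SN oocytes 0.55 (-0.20 to 1.29), and it held only 244 counts in 87 oocytes. In NSN oocytes 2 of 52 pathway genes were called lower and 1 higher, against 3.02% and 0.764% of all features, and in SN oocytes 2 of 54 were called lower and 1 higher, against 5.52% and 6.56%. The genes called besides Eif2ak2 were named after their values were seen. In NSN oocytes Dhx9, an RNA helicase, was lower at a log2 ratio of -0.63, from 15.4 to 9.96 CPM, and Prkra, which activates PKR, was higher at 0.64, from 0.811 to 1.26 CPM. In SN oocytes Prkra was called in the other direction, at -0.64 (-1.56 to 0.20), and Tlr3, an endosomal receptor of double-stranded RNA, was lower at -0.68 (-1.02 to -0.34), from 7.70 to 4.82 CPM. Dhx9, Prkra and Tlr3 belong with Eif2ak2 to the list of double-stranded RNA binding and sensing genes, in which 16 of 17 genes compared over all oocytes stayed within 1.5-fold.

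Among the signalling partners of the RIG-I-like receptors 0 of 12 genes compared over all oocytes were called with age. In NSN oocytes 0 of 11 were called, and in SN oocytes 1 of 12 was called higher. This was Ikbkg, a regulatory subunit of the kinase that activates NF-kB, with 3.18 CPM in young SN and 7.73 CPM in aged SN oocytes, a log2 ratio of 1.28 (0.93 to 1.64). The most abundant were Tax1bp1, a ubiquitin-binding adaptor, with 297 CPM in the young and 312 CPM in the aged oocytes, and Tank, a scaffold of the kinases below Mavs, with 55.6 and 57.3 CPM. Trim25, an activator of RIG-I that was named after its values were seen, was near the limit of detection with 13 counts in 10 of 87 oocytes. Of the other OAS pathway genes 0 of 7 were called, with Oas1f at 41.5 and 49.1 CPM and Pde12, which degrades the oligoadenylate messenger, at 27.1 and 26.3 CPM. Oas1f had the largest ratio of this list, 0.24 on the log2 scale (0.19 to 0.30), and 33 of 45 aged oocytes lay above the young median.

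Of 11 interferon receptor signalling genes 7 had a feature, and 0 of these were called, with log2 ratios between -0.12 and 0.10. Jak1, a kinase at the receptor, had 273 and 270 CPM, and Irf1, a transcription factor, had 204 and 214 CPM in young and aged oocytes. Of 24 interferon-stimulated genes 14 had a feature, 7 could be compared and 0 were called, with a median log2 ratio of 0.05. The most abundant were Cmpk2, a nucleotide kinase, with 84.8 and 80.9 CPM, and Samhd1, which hydrolyses deoxynucleotides, with 66.0 and 68.2 CPM. Ifit3, Trim21 and Gbp2, named after their values were seen, had no count in any of the 87 oocytes. Ttc37 (137 and 132 CPM) and Skiv2l2 (83.8 and 80.2 CPM), of the Ski complex and its relatives, gave log2 ratios of -0.06 each, and 0 of 3 genes of this list were called.

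**Figure D5:**
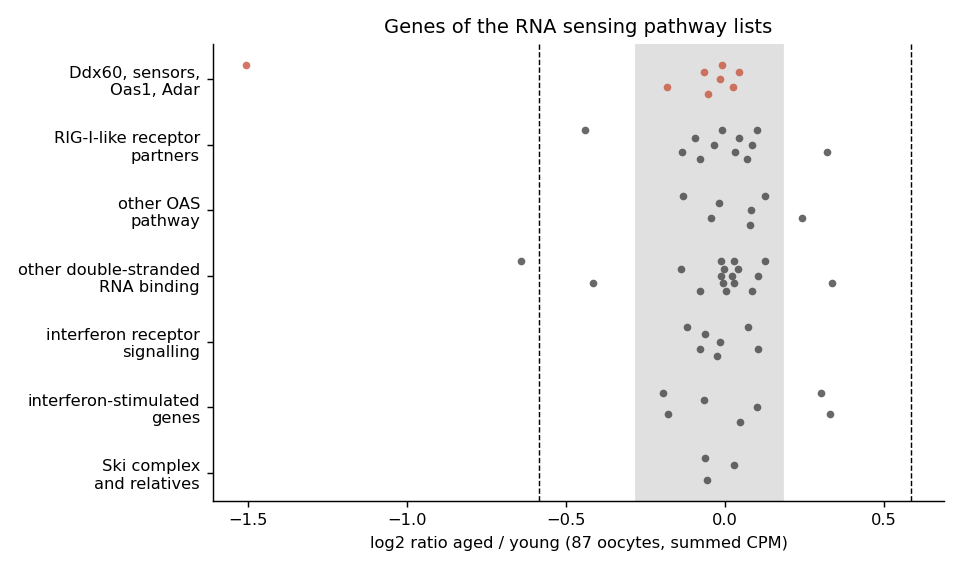
Log2 ratio of aged over young from summed CPM (horizontal axis) for each compared gene of the group (red) and of 6 pathway lists (grey), with dashed lines at 1.5-fold and a grey band over the middle 80% of all 16711 features. Ddx60 at -1.51 and Eif2ak2 at -0.64 are the only points left of the lower dashed line, and none lies right of the upper one.

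Markers of granulosa cells, which surround the oocyte, had counts at both ages. The summed level of 11 of 12 markers with a feature ranged from 30.0 to 104 CPM in young and from 28.6 to 102 CPM in aged oocytes, with medians of 45.5 and 41.8 CPM. The defining markers Foxl2 and Amh had 0.045 and 0.11 CPM in young and 0.018 and 0.044 CPM in aged oocytes. Of 5 granulosa markers compared 2 were called lower with age and 1 higher. Gja1, a gap junction gene, was lower at 6.98 CPM in the young and 3.44 CPM in the aged oocytes, Hsd17b1, a steroid enzyme, was lower at 2.00 and 1.10 CPM, and Inhba, an activin subunit, was higher at 0.525 and 1.17 CPM. Of 10 immune cell markers 4 had a feature, and their sum ranged from 2.93 to 11.2 CPM in young and from 2.69 to 69.0 CPM in aged oocytes. Lyz2, a lysozyme of myeloid cells, was called higher in aged oocytes with 0.030 CPM in the young and 1.48 CPM in the aged oocytes (log2 ratio 5.63), but it was found in 7 oocytes in all and reached 41.8 CPM in a single aged oocyte. The part of other cells in the level of Ddx60 was not tested.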

How the data were processed

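Messenger RNA was captured from single oocytes on oligo-dT beads and amplified by Smart-seq2, without molecular identifiers. Per the study's methods and the labels, the authors trimmed single-end reads with Trim Galore, aligned them to GRCm38 with HiSat2 and deposited raw counts of primary alignments over an oocyte transcriptome. The counting program and its strand setting are not given in the sources used here. Configurations were the study's predictions.

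From the deposited counts, CPM, ratios of summed counts with exact conditional binomial intervals (95%), exact Poisson and binomial intervals and squared coefficients of variation less counting noise were computed (Python 3.11.15, scipy 1.17.1), and TMM factors with edgeR 4.0.16. Intervals of levels and ratios cover counting error only, since reads without identifiers are not independent molecules. The binomial interval of detection is over oocytes, taken as independent draws. The functions recovered known folds in simulated data. No replicate of an age is named, so no comparison of the ages was tested. The genes and lists were chosen with earlier results of these data known. Named genes were the 10 of the group, list genes past 1.5-fold in all and in NSN oocytes or else the 2 most abundant of a list, and the 5 features most like Ddx60. Pathway genes given with values outside this rule are marked in the text. Sequences came from RefSeq (GRCm38.p6) and GENCODE M21, and 7 of the 10 genes had a promoter window. A gene of the OAS pathway list is not reported here.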

Additional observations from a re-analysis of the deposited data

Results flagged for a closer look

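In the 8 aged SN oocytes the highest and lowest value of each of the 8 genes was set against the range of the group. Ddx58 in aged SN oocyte 15 reached 55.6 CPM, with 35.8 CPM in the next oocyte, a gap of 0.59 of the range. Oas1e in aged SN oocyte 46 reached 2740 CPM, with 2428 CPM in the next oocyte, a gap of 0.54 of the range. Both passed the 95% limit of Dixon's test (0.526), which chance passes in about 1 in 20 groups, and 16 such checks were made. The check sets single oocytes against each other and says nothing about the ages.

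The excluded aged oocyte 48A, which entered no comparison, lay above every young oocyte for 5 genes. It had 56.0 CPM of Ddx58, 2002 CPM of Oas1c, 3600 CPM of Oas1d, 4922 CPM of Oas1e and 1344 CPM of Oas1h, from 1.70 to 2.23 times the young medians. The 4 Oas1 genes together took 1.19% of its counts, against a highest value of 0.718% in the other oocytes. Adar stood at 32.3 CPM, below the lowest of the 87 other oocytes at 66.4 CPM, while Ddx60 (4.46 CPM) and Mavs (22.02 CPM) lay within the range of the others. Its total of 3588332 counts was within the range of the other oocytes.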

How the results depend on the processing

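The log2 ratio of aged over young (-1.51) was -2.30 from medians over oocytes, -1.96 in NSN oocytes alone, -0.076 in SN oocytes alone, where its interval of -0.34 to 0.19 includes 0, and -1.01 in SN oocytes without aged oocyte 41, an alternative chosen after seeing the data. Leaving out single oocytes gave -1.75 (without oocyte 41) to -1.43, leaving out name runs gave -1.62 to -1.39, and outside SN oocytes alone all 13 values were past 1.5-fold. The ratio of SN over NSN (-0.75 in young, 1.14 in aged) was -1.003 and 0.61 after thinning to 900000 counts, -0.98 and 0.041 from medians, and -0.91 to -0.64 and 0.21 to 1.34 when single oocytes were left out. The squared coefficient of variation of Ddx60 beyond counting noise in young oocytes (0.30) was 0.21 in NSN oocytes. For the 7 other genes 98 alternative values of aged over young lay between -0.29 and 0.13, and 0 passed 1.5-fold. Of 401 features called lower and 83 higher, the numbers were 2706 and 1561 without a minimum level, 34 and 3 at 10 CPM, 97 and 15 at 2-fold, 502 and 127 in NSN oocytes and 678 and 155 after thinning. Pathway genes called lower numbered 2 without a minimum level and in NSN oocytes, with 1 higher in the latter, and 0 at 10 CPM and at 2-fold. Elsewhere, among results on single genes, 113 values moved beyond their counting interval or by over 0.25 of themselves, 173 did not, and no called value changed sign. No paired analysis was possible because the oocyte names share no number between the ages. Ddx60 rested on 566 counts in 45 aged oocytes.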
